A study of Mus musculus with 6 samples.

Results

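Neurexins and neuroligins are partner families of adhesion proteins that meet across the cleft of the synapse. The genes described here are 2 neurexin genes, Nrxn2 and Nrxn3, and 3 neuroligin genes, Nlgn1, Nlgn2 and Nlgn3. They were taken by symbol from a deposited table of normalized read counts, and these 5 of its 22057 genes are described over the 6 libraries. All 5 passed the filter on low values, a mean of at least 10 normalized counts over the libraries, which 17068 genes passed. The PDGFA group (n = 3) holds p53-null mouse neural progenitor cells kept for 4 days with PDGFA, the A chain of platelet-derived growth factor and a mitogen of oligodendrocyte precursors. The EF group (n = 3), which the series names as the control, holds cells with the same genotype kept for 4 days with the stem cell factors EGF and FGF plus heparin. Mice 62, 68 and 69 each gave 1 library to each group. The media differ in the factors taken away as well as in the factor added, and all 6 libraries lack p53 by their labels. Neither the design of the Trp53 allele nor the age of the mice is given by the labels.

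Neurexins sit mainly on the presynaptic side, and each neurexin gene makes a long alpha form and a shorter beta form from separate promoters, which counts per gene do not separate. Neuroligins are their postsynaptic partners: Nlgn1 acts mostly at excitatory synapses, Nlgn2 at inhibitory ones, and Nlgn3 at synapses of either kind. Glia also make these proteins. In mice, neuroligins of astrocytes shape astrocyte branching, and the shed outer part of Nlgn3, released from neurons and oligodendrocyte precursors by the protease Adam10, promotes growth of high-grade glioma.

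The cytoplasmic end of each protein is what ties it to scaffold proteins, so the end of the coding sequence is shown first. Each line gives the last 45 coding bases before the stop codon, 5′ to 3′, from the longest annotated coding sequence in GENCODE M21 (GRCm38). The last 12 bases, which encode the tail bound by PDZ domains of scaffold proteins, are in capitals.
Nrxn2: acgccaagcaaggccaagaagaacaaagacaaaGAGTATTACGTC
Nrxn3: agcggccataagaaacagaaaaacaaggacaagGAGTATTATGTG
Nlgn1: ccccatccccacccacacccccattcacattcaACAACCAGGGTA
Nlgn2: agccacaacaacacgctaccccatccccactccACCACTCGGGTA
Nlgn3: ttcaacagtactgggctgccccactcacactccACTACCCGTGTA
The final 12 bases matched at 10 positions between Nrxn2 and Nrxn3 and at 9 positions in each pair of neuroligins, against 2 or 3 between a neurexin and a neuroligin. Over the whole coding sequences, the longest identical run was 23 bases between Nrxn2 and Nrxn3, between Nlgn1 and Nlgn3 and between Nlgn2 and Nlgn3, and 17 bases between Nlgn1 and Nlgn2. Between a neurexin and a neuroligin it was 11 to 14 bases. Any read longer than 23 bases within these coding sequences thus differs between the genes.

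Nrxn2 lies on chromosome 19 (6418731 to 6544169, plus strand), Nrxn3 on chromosome 12 (88722876 to 90334935, plus strand), Nlgn1 on chromosome 3 (25426215 to 26332460, minus strand), Nlgn2 on chromosome 11 (69823122 to 69837784, minus strand) and Nlgn3 on chromosome X (101299168 to 101325963, plus strand), in GRCm38. Other annotated genes overlap 4 of them. The kit named in the labels does not mark strand, so reads in shared exons cannot be assigned by strand. Slc22a12, on the strand opposite Nrxn2, shares 682 exon bases with it and had 32.3 to 42.1 normalized counts in PDGFA and was at 0 in every EF library. Gm14964, also opposite Nrxn2, shares 207 exon bases and had 65.4 to 119 counts in PDGFA and 2.87 to 10.2 in EF. Both were far below Nrxn2 in level. Gm21986, on the strand of Nlgn3, shares 3823 exon bases with it and had 39.0, 42.0 and 26.0 counts in PDGFA and 44.1, 30.4 and 26.9 in EF. A830092H15Rik, opposite Nlgn1, shares 1229 exon bases and had 18.8 to 22.9 counts in PDGFA and 3.84 to 39.4 in EF. How reads in such shared exons were counted is not stated in the labels.

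The libraries held between 27270246 and 39601349 recovered reads. Of the 17068 tested genes, 3720 (21.8%) were higher and 3076 (18.0%) lower in PDGFA than in EF at an adjusted p under 0.05 (limma). Together this is 39.8% of all tested genes. The median SD of log2 values between mice was 0.172 in PDGFA and 0.38 in EF. Trp53 itself was read in every library (988 to 1122 in PDGFA, 1672 to 2383 in EF). The deleted stretch is not named in the labels, and the genotype cannot be checked from these reads. Of 9 neural progenitor markers, 3 were higher and 5 lower in PDGFA, with Nes at 1600 to 3420 in PDGFA and 21108 to 48051 in EF. All 10 oligodendrocyte markers were higher in PDGFA, with a summed level of 352459 to 432888, against 2723 to 4482 in EF, and 6 of 10 astrocyte markers were higher (summed level 177602 to 286889 in PDGFA, 51730 to 96732 in EF). The part of these cell types in the levels described here was not tested. Only 2 of 6 microglial markers were in the table, with summed levels of at most 44.7 counts.

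Of the neurexin and neuroligin genes, Nrxn2, Nlgn2 and Nlgn3 rose in PDGFA, and Nrxn3 and Nlgn1 did not pass the test. That is 3 of 5 called higher and 0 of 5 lower, where 21.8% of all tested genes were called higher and 18.0% lower. The median log2 fold change was 1.04 over the 5 genes and -0.01 over all tested genes. In bulk RNA, more cells of a type and more RNA per cell cannot be told apart. The EF library of mouse 68 had the highest level of the 3 EF libraries for all 5 genes, which was so for 24.0% of all tested genes.

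**Figure D1:**
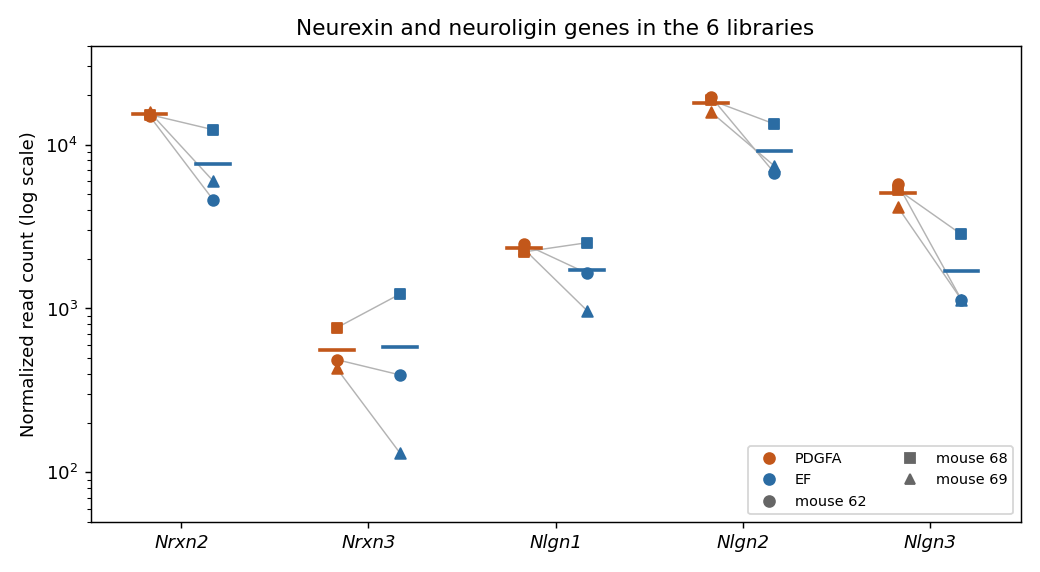
Normalized read count (log scale) of the 5 genes in each library, with PDGFA left of EF, points shaped by mouse, grey lines joining the libraries of a mouse and bars at group means. The PDGFA points of Nrxn2, Nlgn2 and Nlgn3 lie above all their EF points, while Nrxn3 and Nlgn1 overlap through the EF library of mouse 68.

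Among the neurexins, Nrxn2 had 14928, 15235 and 15791 normalized counts in the PDGFA libraries of mice 62, 68 and 69, against 4596, 12324 and 5992 in their EF libraries. The PDGFA libraries were close together and all above the EF libraries, of which that of mouse 68 stood apart. The means were 15318 ± 438 in PDGFA and 7637 ± 4118 in EF (SD, n = 3 each), a 2.01-fold ratio. The log2 fold change was 1.13 (SE 0.33, limma adjusted p = 0.0306), higher in 3 of 3 mice. The call of Nrxn2 held without EF 68 (log2 fold change 1.54, adjusted p = 0.00105) and was lost when any other single library was left out. Its adjusted p was then 0.0768 without PDGFA 62, 0.0837 without PDGFA 68, 0.0901 without PDGFA 69, 0.0565 without EF 62 and 0.0816 without EF 69. With edgeR on the recovered reads it was 0.0557, so Nrxn2 was not called there either.

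Nrxn3 was the lowest of the 5 genes per length and the most uneven in EF. It had 487, 762 and 431 counts in the PDGFA libraries of mice 62, 68 and 69, against 393, 1227 and 130 in their EF libraries. The groups overlapped, since the EF libraries spanned the whole PDGFA range. The means were 560.0 ± 177 in PDGFA and 583 ± 573 in EF, and the log2 fold change was 0.45 (95% interval -1.23 to 2.13, limma adjusted p = 0.652). The direction of Nrxn3 turned with the method, since it was -0.0692 with edgeR and -0.0689 with DESeq2 on recovered reads and -0.35 without EF 69. The lowest value rests on 102 reads in EF 69, with an exact 95% Poisson interval of 83.2 to 124 that covers counting error only. The SD of log2 values between mice was 0.43 in PDGFA and 1.61 in EF.

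With all 6 libraries, Nlgn3 had the largest log2 fold change of the 5 genes. It had 5726, 5314 and 4155 counts in the PDGFA libraries of mice 62, 68 and 69, against 1131, 2833 and 1133 in their EF libraries. Every PDGFA library was above every EF library, and the gap was smallest in mouse 68. The means were 5065 ± 814 in PDGFA and 1699 ± 982 in EF, a 2.98-fold ratio, with a log2 fold change of 1.71 (SE 0.36, limma adjusted p = 0.00779). Nlgn3 stayed called in all 15 alternatives, with adjusted p-values from 0.000282 to 0.0313.

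Nlgn2 was the most abundant of the 5 genes per length. It had 19639, 18680 and 15848 counts in the PDGFA libraries of mice 62, 68 and 69, against 6721, 13361 and 7407 in their EF libraries. The groups did not overlap, and EF 68 was again the nearest EF library to the PDGFA ones. The means were 18056 ± 1971 in PDGFA and 9163 ± 3652 in EF, a 1.97-fold ratio, with a log2 fold change of 1.04 (SE 0.27, limma adjusted p = 0.0182). The call was lost without PDGFA 62 (adjusted p = 0.0651), without PDGFA 68 (0.065) and without EF 69 (0.052). Over all 15 alternatives its adjusted p lay between 0.00164 and 0.0651. Groups that do not overlap with PDGFA above, as in Nrxn2, Nlgn2 and Nlgn3, were found in 29.2% of all tested genes. The same 3 genes were higher in PDGFA in every mouse, as were 33.7% of all tested genes.

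Nlgn1 had 2480, 2213 and 2312 counts in the PDGFA libraries of mice 62, 68 and 69, against 1636, 2521 and 966 in their EF libraries. The EF library of mouse 68 was above all PDGFA libraries, and the other EF libraries were below them. The means were 2335 ± 135 in PDGFA and 1708 ± 780 in EF, with a log2 fold change of 0.56 (95% interval -0.18 to 1.29, limma adjusted p = 0.198). Without EF 68, Nlgn1 passed the test (log2 fold change 0.89, adjusted p = 0.0302). Over all 15 alternatives its adjusted p lay between 0.0302 and 0.456. Nlgn1 and Nrxn3 were higher in PDGFA in 2 of 3 mice, with mouse 68 the exception in each.

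**Figure D2:**
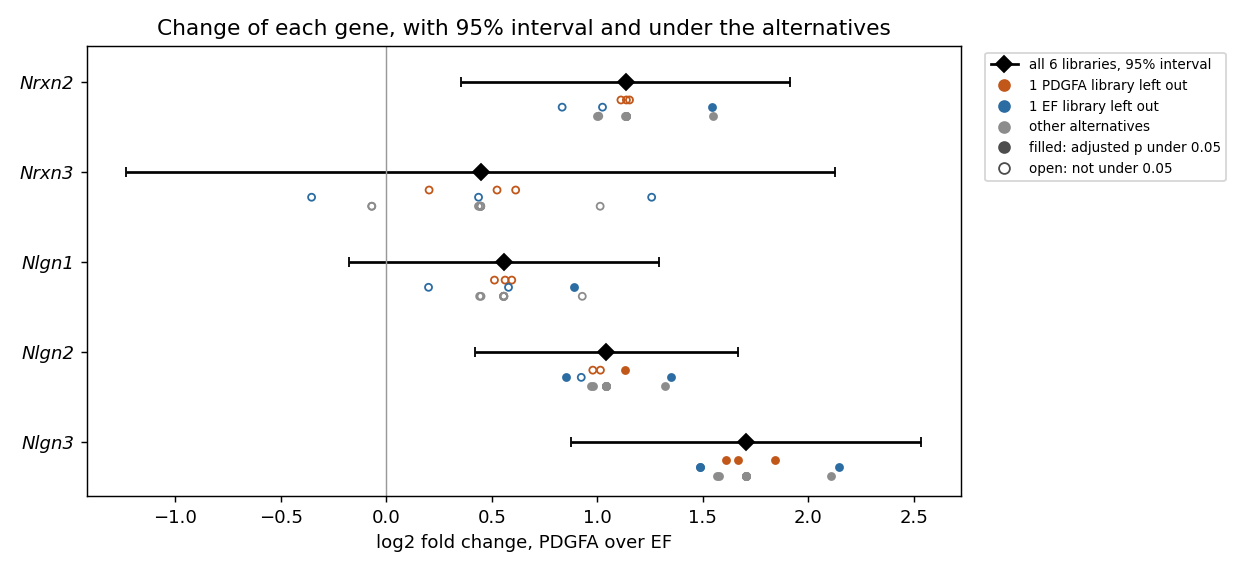
Log2 fold change, PDGFA over EF, of each gene with all 6 libraries (diamond, 95% interval) and under each alternative (small circles, filled where the adjusted p was under 0.05). All circles of Nlgn3 are filled, those of Nrxn2 are open for 5 of the 6 single libraries left out, and those of Nrxn3 fall on both sides of 0.

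The count of members called higher moved with single libraries: it was 1 without PDGFA 62, without PDGFA 68 and without EF 69, 2 without PDGFA 69 and without EF 62, and 4 without EF 68. The one gene called in each of these fits was Nlgn3. The paired differences per mouse show where mouse 68 departs. The log2 difference PDGFA minus EF of Nlgn3 was 2.34 in mouse 62, 0.91 in mouse 68 and 1.87 in mouse 69. For Nrxn2 it was 1.70, 0.31 and 1.40, for Nlgn2 1.55, 0.48 and 1.10, for Nlgn1 0.60, -0.19 and 1.26, and for Nrxn3 0.31, -0.69 and 1.72. Mouse 68 thus had the lowest difference of the 3 mice for all 5 genes. This is not separate from EF 68 being the highest EF library for each, since that level enters the difference. The share of all tested genes with the lowest difference in mouse 68 was not counted.

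Markers of several cell types were highest in EF 68 among the EF libraries. These were 7 of 8 tested for oligodendrocyte precursors, 8 of 10 for astrocytes, 8 of 11 for neurons and 6 of 10 for oligodendrocytes. For neural progenitors it was 3 of 9, and for all tested genes 24.0%. The same held for 16 of 20 tested extracellular partners of the 2 families and 29 of 35 other synaptic adhesion genes. It held for 14 of 25 scaffold genes and 4 of 9 processing and splicing genes. The summed astrocyte markers were 51730 in EF 62, 96732 in EF 68 and 57281 in EF 69. The summed level of the precursor markers was 184086 to 265731 in PDGFA and 161552 to 311396 in EF, with the highest EF sum in mouse 68. Of the 8 precursor markers, 3 were called higher in PDGFA (Sox10, Gpr17 and C1ql1) and 3 lower (Cspg4, Olig1 and Olig2). Over all tested genes, 21.8% were called higher and 18.0% lower. Pdgfra, the receptor of PDGFA, had 15697, 17128 and 7987 counts in PDGFA and 861, 14133 and 533 in EF. It was not called (limma adjusted p = 0.0823), but was with the mouse as a block (0.0217). Pdgfra was also called without EF 68 (log2 fold change 4.25, adjusted p = 0.00052) and without both libraries of mouse 68 (4.04, 0.00204). The part of these cell types in the levels of the neurexin and neuroligin genes was not tested. Of 11 neuronal markers tested, 3 were higher in PDGFA (Tubb3, Dcx and Elavl3, genes that young neurons use) and 0 were lower. The summed neuronal markers were 14139 to 17365 in PDGFA and 1911 to 4377 in EF. The other 8 tested neuronal markers were not called. Among them, Rbfox3 averaged 93.4 ± 34.9 in PDGFA and 82.4 ± 42.0 in EF. The log2 fold change was 0.69 for Syp (limma adjusted p = 0.0717, and 0.0402 without EF 68), 0.49 for Gad1, 0.31 for Gad2, 0.24 for Rbfox3 and 0.05 for Syn1. It was -0.17 for Syt1, -0.20 for Snap25 and -0.50 for Nefl. Stmn2 and Slc17a7 were too low to be tested. The part of neurons in these levels was not tested.

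Levels of different genes were compared per kilobase of annotated exon. In PDGFA the order was Nlgn2 (3121 ± 341 normalized counts per kb), Nrxn2 (1109 ± 31.7), Nlgn3 (546 ± 87.9), Nlgn1 (174 ± 10) and Nrxn3 (44.4 ± 14.1), and no neighbours in it overlapped. The order of the means was the same in EF, with 1584 ± 631 for Nlgn2, 553 ± 298 for Nrxn2, 183 ± 106 for Nlgn3, 127 ± 58.1 for Nlgn1 and 46.3 ± 45.4 for Nrxn3. There, the ranges of Nlgn3 and Nlgn1 overlapped across libraries, as did those of Nlgn1 and Nrxn3. Within each EF library Nlgn1 was above Nrxn3, with 121.9, 187.8 and 72.01 against 31.15, 97.36 and 10.35 in mice 62, 68 and 69. Nlgn3 was level with Nlgn1 in EF 62 (122.0 against 121.9). It was above Nlgn1 in EF 68 (305.5 against 187.8) and EF 69 (122.2 against 72.01). Nlgn2 made up 62.4% ± 1.80 of the 5-gene sum per kb in PDGFA and 64.4% ± 3.10 in EF. The share of Nlgn3 was 11.6%, 11.2% and 9.9% in the PDGFA libraries of mice 62, 68 and 69, against 6.9%, 8.1% and 6.4% in their EF libraries. Exon length counts all annotated exons of a gene, so a gene with many rarely used exons is understated. It also counts exon bases shared with other genes, such as 3823 of the 9271 of Nlgn3 that Gm21986 shares. How reads there were counted is not stated, so the level and share of Nlgn3 carry that limit.

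**Figure D3:**
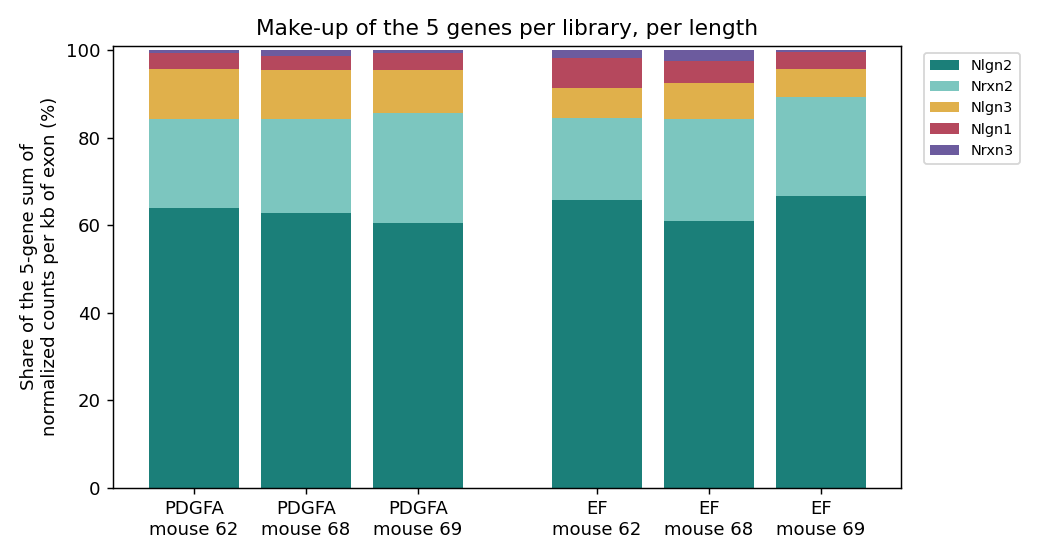
Share (%) of each gene in the 5-gene sum of normalized counts per kb of exon, 1 bar per library, PDGFA left of EF. Nlgn2 fills most of each bar, and the Nlgn3 band is 9.9% to 11.6% in PDGFA and 6.4% to 8.1% in EF.

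Ratios within a library were compared for 4 pairs of genes, which removes any scaling of the library. The per-length ratio of Nlgn3 over Nlgn1 was 3.34, 3.48 and 2.6 in PDGFA, against 1.0, 1.63 and 1.7 in EF, so PDGFA was above EF in every library. The ratio of Nlgn3 over Nlgn2 was 0.182, 0.178 and 0.164 in PDGFA, against 0.105, 0.132 and 0.0954 in EF, again without overlap. For both, the two-sided exact permutation test gave p = 0.1 (0.2 adjusted over the 4 ratios), the smallest p that 3 against 3 libraries allow. The ratios of Nlgn2 over Nlgn1 (18.4, 19.6 and 15.9 in PDGFA, 9.53, 12.3 and 17.8 in EF) and of Nrxn2 over Nrxn3 (26.6 ± 7.69 in PDGFA, 20.6 ± 18.5 in EF) overlapped, with exact permutation p of 0.2 and 0.4.

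Promoter sequences from RefSeq (GRCm38.p6) were at hand for 3 of the 5 genes, Nrxn3, Nlgn1 and Nlgn2. Those of Nlgn2, which was called, and Nlgn1, which was not, are shown 5′ to 3′ on the gene's strand. Each runs from 250 bases before to 50 after a start site. The per-length ratio of Nlgn2 over Nlgn1 overlapped between the groups (exact permutation p = 0.2). A difference in change between these genes was thus not shown. Capitals mark GC boxes, the letters GGGCGG on either strand. The Nlgn2 promoter lies at chr11:69837735-69838034, minus strand, and the upstream Nlgn1 promoter at chr3:26331860-26332159, minus strand.
Nlgn2: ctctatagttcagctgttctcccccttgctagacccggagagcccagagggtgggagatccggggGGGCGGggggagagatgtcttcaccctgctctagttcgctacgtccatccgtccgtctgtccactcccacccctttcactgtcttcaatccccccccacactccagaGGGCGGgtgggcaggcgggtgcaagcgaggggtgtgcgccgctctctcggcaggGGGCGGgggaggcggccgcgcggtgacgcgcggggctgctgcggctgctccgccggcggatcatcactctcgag
Nlgn1: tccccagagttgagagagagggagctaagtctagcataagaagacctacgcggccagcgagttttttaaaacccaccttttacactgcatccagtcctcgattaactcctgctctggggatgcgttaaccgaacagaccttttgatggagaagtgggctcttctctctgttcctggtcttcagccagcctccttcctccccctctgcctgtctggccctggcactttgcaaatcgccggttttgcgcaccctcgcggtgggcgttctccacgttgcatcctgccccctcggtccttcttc
The Nlgn2 window held 3 GC boxes and 26 CpG sites and was 68.7% G and C. The upstream Nlgn1 window held 0 GC boxes and 14 CpG sites and was 55.7% G and C. A downstream Nlgn1 window (chr3:26153937-26154236), not shown, held 0 GC boxes and 6 CpG sites and was 44.7% G and C. Counts per gene do not tell which start was used. Of 32851 promoter windows of the same length, 35.7% held a GC box, and the medians were 7 CpG sites and 52.7% G and C. The TATA box letters TATAAA were in none of these Nlgn1 and Nlgn2 windows and in 13.6% of all. These matches describe the letters and were not tied to the change of either gene.

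Genes with the most similar profile were named for each member by Pearson's r of log2 values over the 6 libraries, as a description over libraries that share groups and mice. For Nlgn3 they were Nalcn (r = 0.9996), Mtmr7 (0.9994) and Plppr1 (0.9989), and for Nlgn2 they were Chga (0.9994), Sema3d (0.9987) and Plppr1 (0.998). Nalcn, a sodium leak channel, had 2338, 1882 and 1053 counts in PDGFA and 78.5, 521 and 78.0 in EF, which has the shape of Nlgn3 on a steeper scale. Those nearest Nrxn2 were Pcdh10 (0.9992), Ednrb (0.9976) and Plxnb1 (0.9963). Pcdh10, a protocadherin, had 13671, 14745 and 14932 counts in PDGFA and 3833, 11790 and 5028 in EF, with EF 68 nearest to the PDGFA libraries as for Nrxn2. Nearest to Nlgn1 were Srsf12 (0.9922), Dnm1 (0.9869) and Il33 (0.9868), and to Nrxn3 Lnx1 (0.9806), Disp3 (0.9742) and Gbe1 (0.9742). Among the members, r was 0.996 between Nlgn2 and Nlgn3, 0.974 between Nrxn2 and Nlgn2 and 0.879 between Nrxn3 and Nlgn1, and 0.58 between Nrxn2 and Nrxn3.

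Of 25 extracellular partners of the 2 families, 23 were in the table and 20 were tested. Of these 20, 8 were higher (40.0%) and 2 lower in PDGFA, with a median log2 fold change of 1.06. Over all tested genes, 21.8% were called higher and 18.0% lower. Cbln2, a secreted protein that bridges neurexins to delta glutamate receptors, had 1107, 1191 and 1312 counts in PDGFA, against 0, 11.3 and 7.67 in EF. It was almost absent from EF and rose in all mice (log2 fold change 7.99, SE 0.87, limma adjusted p = 0.000399). Leaving out EF 62 gave 6.86 and leaving out EF 68 gave 8.67. Mdga1, which blocks neuroligins from binding neurexins, averaged 3214 ± 317 in PDGFA and 617 ± 177 in EF (log2 fold change 2.42, adjusted p = 0.000241). Its relative Mdga2 went the other way, with 1639 ± 244 in PDGFA and 3112 ± 488 in EF (log2 fold change -0.92, adjusted p = 0.00534; 0.081 without both libraries of mouse 68). Lrrtm2, a postsynaptic receptor of neurexins, averaged 2054 ± 314 in PDGFA and 372 ± 200 in EF (adjusted p = 0.00133). Cbln4, another secreted cerebellin, averaged 9.53 ± 1.32 in PDGFA and 52.1 ± 32.4 in EF (adjusted p = 0.0174). Its call was lost without PDGFA 68 (0.0646), PDGFA 69 (0.0578) or EF 68 (0.0522). The most abundant partners that did not pass were dystroglycan, Dag1 (14022 ± 996 in PDGFA, 16080 ± 4518 in EF), and the latrophilin Adgrl1 (13574 ± 1844 in PDGFA, 11994 ± 2790 in EF). The number higher was 5 without PDGFA 62, and the number lower was 1 without PDGFA 68, PDGFA 69 or EF 68.

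Of 25 cytoplasmic scaffold genes, all tested, 9 were higher (36.0%) and 4 lower (16.0%) in PDGFA, with a median of 0.28. The shares of all tested genes were 21.8% higher and 18.0% lower. Cask, which binds neurexin tails, had 17998, 16385 and 13352 counts in PDGFA, against 5212, 6360 and 5024 in EF, and the groups were far apart (log2 fold change 1.52, SE 0.17, limma adjusted p = 0.000462). Apba1, which joins Cask and Lin7 in a presynaptic complex, averaged 3742 ± 322 in PDGFA and 259 ± 142 in EF (log2 fold change 4.0, adjusted p = 0.000225). Apba2 averaged 2767 ± 24.0 in PDGFA and 1050 ± 326 in EF (adjusted p = 0.00255). None of the 3 Lin7 genes was called, with log2 fold changes of 0.75 for Lin7a, 0.06 for Lin7b and -0.13 for Lin7c. Lin7a was called without EF 68 (1.46, adjusted p = 0.0277). Among the 4 lower genes, Dlg4 (PSD-95), whose PDZ domain binds neuroligin tails, averaged 3347 ± 285 in PDGFA and 7123 ± 872 in EF (log2 fold change -1.09, SE 0.15, adjusted p = 0.00105). Dlgap3, which links Dlg4 to Shank proteins, averaged 847 ± 266 in PDGFA and 4103 ± 835 in EF (log2 fold change -2.31, adjusted p = 0.000627). Magi1, a scaffold with several PDZ domains that also acts at epithelial junctions, averaged 2863 ± 328 in PDGFA and 5692 ± 722 in EF (adjusted p = 0.00202). Dlg1, Dlg2, Dlgap1, Dlgap4 and Shank1, which also act at postsynaptic sites, were called higher. Each lost its call in at least 1 fit that left out a single library. That of Dlg1 (adjusted p = 0.0179) was lost under the block by mouse (0.0582) and when PDGFA 62 (0.0535), PDGFA 68 (0.0842) or PDGFA 69 (0.0743) was left out. That of Dlg2 (0.0318) was lost without PDGFA 62 (0.0807), PDGFA 68 (0.102), PDGFA 69 (0.0822) or EF 68 (0.0606). Dlgap1 (0.0143) was not called without PDGFA 69 (0.0532), and Dlgap4 (0.0158) without PDGFA 62 (0.0686) or PDGFA 68 (0.0711). Shank1 (0.0326) was not called without PDGFA 62 (0.118), PDGFA 68 (0.113) or EF 69 (0.0657). Gphn, which encodes gephyrin, the scaffold that Nlgn2 binds at inhibitory synapses, was not called, with a log2 fold change of 0.27. The number higher was 4 without PDGFA 62, 4 without PDGFA 68 and 5 without PDGFA 69.

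Genes that cleave neurexins and neuroligins or set neurexin splicing were called in both directions. Of 9 tested, 3 were higher (33.3%) and 3 lower (33.3%), with a median of 0.00, against 21.8% and 18.0% of all tested genes. Bace1, a protease, averaged 5670.1 ± 585 in PDGFA and 1979 ± 204 in EF (log2 fold change 1.52, SE 0.14, limma adjusted p = 0.000205). Psen2, a catalytic subunit of gamma-secretase, had 571 to 630 counts in PDGFA and 128 to 177 in EF (adjusted p = 0.000353). Khdrbs2, an RNA-binding protein that sets neurexin splicing, had 795, 566 and 324 counts in PDGFA, against 2.87, 34.9 and 1.28 in EF. EF 68 was again the highest of its EF libraries, and the log2 fold change was 6.27 (adjusted p = 0.00206), 7.47 without EF 68 and 5.48 without EF 69. Its relative Khdrbs3 averaged 1455 ± 337 in PDGFA and 3401 ± 1661 in EF (log2 fold change -1.14, adjusted p = 0.0347). Khdrbs3 was not called without PDGFA 62 (0.0671), PDGFA 68 (0.0643), PDGFA 69 (0.12), EF 68 (0.0697) or EF 69 (0.0561). Adam10, the protease that sheds Nlgn3, had 4495, 4984 and 4544 counts in PDGFA, against 5957, 7780 and 9260 in EF. All its PDGFA libraries were below all its EF libraries (log2 fold change -0.69, SE 0.18, adjusted p = 0.0194). Adam10 was not called without PDGFA 62 (0.0725), PDGFA 68 (0.0583), PDGFA 69 (0.0695) or EF 68 (0.0511). Ptbp1, a splicing repressor of non-neuronal cells, averaged 5049.8 ± 487 in PDGFA and 10871 ± 4475 in EF (adjusted p = 0.0218), and was not called without PDGFA 62 (0.055), PDGFA 68 (0.0609) or PDGFA 69 (0.0802). The number lower was 0 without any single PDGFA library and 1 without EF 68.

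Among other synaptic adhesion genes, 14 of 35 tested were higher (40.0%) and 4 lower (11.4%), with a median of 0.88. For all tested genes the shares were 21.8% higher and 18.0% lower. Tenm4, a teneurin, averaged 2383 ± 332 in PDGFA and 270.0 ± 56.7 in EF (log2 fold change 3.15, SE 0.20, limma adjusted p = 3.57e-05). Of the 4 Cadm genes, which encode adhesion molecules shared by synapses and glia, all were higher, among them Cadm3 (4607 ± 185 in PDGFA, 109 ± 107 in EF) and Cadm1 (6878 ± 1133 in PDGFA, 1540.0 ± 571 in EF). The log2 fold change of Cadm3 was 5.94, 5.12 without EF 62 and 6.75 without EF 68. Cntnap4, of the neurexin superfamily, averaged 60.0 ± 30.3 in PDGFA and 361 ± 173 in EF (log2 fold change -2.55, adjusted p = 0.00729; 0.0773 without both libraries of mouse 68). Ntrk3, a neurotrophin receptor, averaged 2372 ± 160 in PDGFA and 5546 ± 2360 in EF (adjusted p = 0.0129; 0.0508 without PDGFA 68). Ntng1, a gene of the netrin-G family, averaged 45.7 ± 28.9 in PDGFA and 240 ± 114 in EF (log2 fold change -2.56, adjusted p = 0.0198). Its log2 fold change was -1.81 without PDGFA 69, and it was not called without EF 69 (0.0597). The number higher was 9 without any single PDGFA library or without EF 69, and the number lower was 2 without PDGFA 68 and 7 without EF 62.

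**Figure D4:**
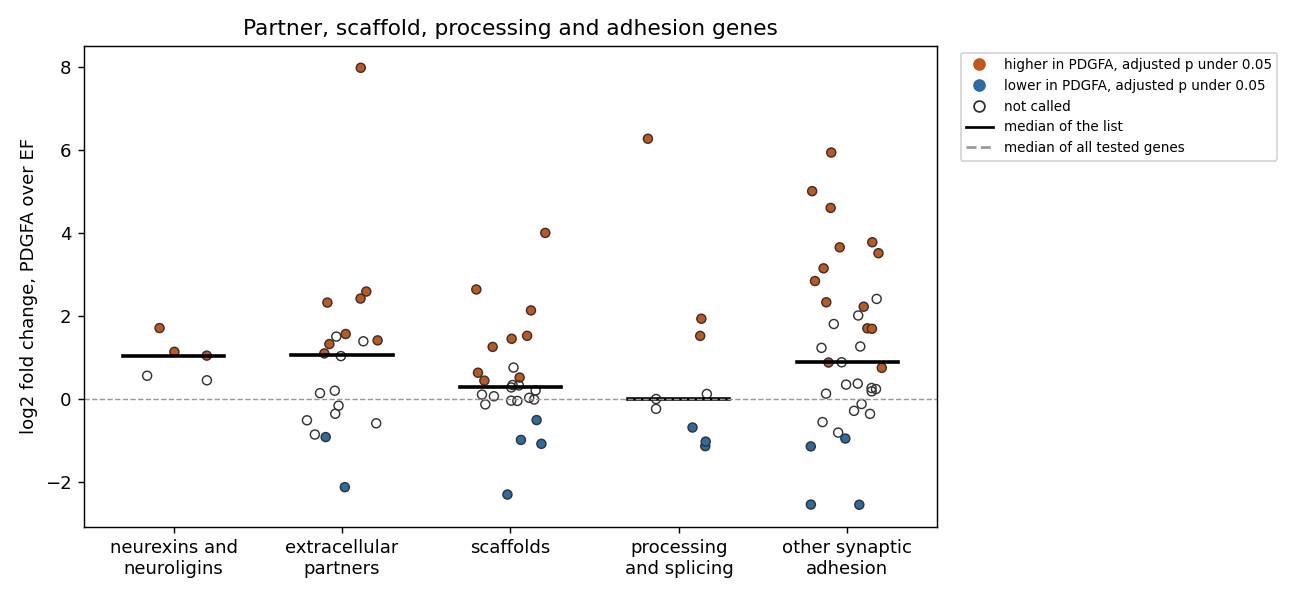
Log2 fold change, PDGFA over EF, of each tested gene in the 5 groups, coloured where the limma adjusted p was under 0.05, with black bars at group medians and a dashed line at the median of all tested genes. The medians are 1.04, 1.06, 0.28, 0.00 and 0.88 from left to right, and each partner group holds genes called in both directions.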

How the data were processed

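Polyadenylated RNA of 6 libraries was compared, prepared with NEB kit E7770 by the labels' protocols, with groups and mice taken from the sample titles. The authors deposited 1 table of normalized signal, in which a library's read counts share a size factor, with 22057 gene symbols as rows. Per the submitters' processing notes, the tools were FastQC, STAR and DESeq2 and the build mm10 (GRCm38). Their versions, the annotation and the strand setting are not stated there. Taking the lowest non-zero value of a library as 1 read gave whole reads for 100% of values within 0.001. The totals of 27270246 to 39601349 recovered reads set the precision of genes with few reads.

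Genes with a mean of at least 10 normalized counts (17068, leaving out 4989) went into limma 3.58.1 in R 4.3.3 on the scale log2(normalized count + 1) (lmFit, and eBayes with a mean trend), group as the only term, two-sided, with Benjamini-Hochberg adjustment at 0.05 over all tested genes. That scale understates the fold changes of low genes. SE and intervals belong to the log2 fold change, and means are given ± SD. The alternatives were other pseudocounts, filters and scaling, the mouse as a block, the quasi-likelihood test of edgeR 4.0.16 on recovered reads (3592 genes higher, 3263 lower), DESeq2 1.42.0 on the same reads (3942 higher, 3746 lower), and each library left out. The limma steps were tested on simulated data with the same dispersion in both groups. In the real libraries the median SD of log2 values was 0.172 in PDGFA and 0.38 in EF. The simulated test thus does not cover unequal spread. Without both libraries of mouse 68 was chosen after seeing the data. The 3 mice gave a library to each group, so the mouse number pairs libraries by animal. The correlation of deviations from the group means between the libraries of a mouse was -0.0906, 0.11 and -0.11 for mice 62, 68 and 69. Whether a mouse gave 1 culture or several is not stated.

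The members and gene lists were chosen with earlier results of these data known. Named genes were the members, up to 3 called genes in each direction with the smallest p per list, abundant genes that did not pass, and the 3 most similar genes per member. Slc22a12, Gm14964, Gm21986 and A830092H15Rik were named for their overlap. Nes, Pdgfra, the other cell type markers, Dlg1, Dlg2, Dlgap1, Dlgap4, Shank1, the Lin7 genes, Gphn and the other Cadm genes were named after their values were seen. Gene spans and exon lengths are from GENCODE M21, in which all 5 symbols were found.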

Additional observations from a re-analysis of the deposited data

How the results depend on the processing

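The direction of Nrxn2, Nlgn1, Nlgn2 and Nlgn3 was the same in each of the 15 alternatives. That of Nrxn3 was reversed with edgeR (-0.0692), with DESeq2 (-0.0689) and without EF 69 (-0.35). Nrxn2 was not called with edgeR (log2 fold change 1.0071). Over the 6 fits without 1 library, log2 fold changes ran from 0.83 to 1.54 for Nrxn2, -0.35 to 1.26 for Nrxn3, 0.20 to 0.89 for Nlgn1, 0.85 to 1.35 for Nlgn2 and 1.49 to 2.15 for Nlgn3. Called members ran from 1 to 4 higher, with 0 lower. With the mouse as a replicate block, Dlg1 was no longer called (0.0582) and Pdgfra was (0.0217), scaffolds had 7 higher and 3 lower, and no call of a member changed, with 3 higher at adjusted p-values of 0.0228 for Nrxn2, 0.0172 for Nlgn2 and 0.0039 for Nlgn3.

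Over all genes, calls without 1 library ran from 2245 to 4271 higher and from 1873 to 3818 lower. They were 1943 higher and 1333 lower without both libraries of mouse 68. For the extracellular partners the fits without 1 library gave 5 to 10 higher and 1 to 3 lower. For scaffolds they gave 4 to 9 higher and 3 to 4 lower, for processing and splicing 3 higher and 0 to 4 lower, and for other synaptic adhesion 9 to 19 higher and 2 to 7 lower. Without both libraries of mouse 68, scaffolds had 4 higher, extracellular partners 0 lower, processing and splicing 0 lower and other synaptic adhesion 1 lower. With a mean of at least 50, the extracellular partners had 1 lower, since Cbln4 was then not tested. Fits without a library also have fewer degrees of freedom. Calls over all genes rose without EF 62, to 4271 higher and 3818 lower, from 3720 and 3076 with all 6 libraries. Why the counts moved was not tested. Median shifts of all genes stayed under 0.1 on the log2 scale in these fits.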
